A study of Mus musculus with 9 samples.

Results

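The genes described here are 9 genes by which absorptive enterocytes bind lipid and build lipoproteins, found by symbol among the 50600 genes of the deposited tables. They fall into 3 roles, namely intracellular lipid and bile acid binding (Fabp1, Fabp2, Fabp6), apolipoproteins (Apoa1, Apoa4, Apob, Apoc3) and lipoprotein assembly with triglyceride synthesis (Mttp, Dgat1). All 9 passed the filter on low values and were among the 16208 genes tested. Messenger RNA of 9 mouse cultures was sequenced, with 3 libraries in each of 3 groups.

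Both organoid groups came from the small intestine of WT C57BL/6 mice, and were kept for 24 hr in a mixture of equal volumes of concentrated organoid medium, with EGF, Noggin and R-spondin1, and conditioned medium (cM). Conditioned medium is medium in which other cultures had grown, and was taken either from WT organoids (WT-cM) or from tumoroids (T-cM). The titles and the treatment fields of these 6 libraries name opposite media. Here the titles name the groups (T-cM-titled, WT-cM-titled), and every direction between them turns round if the treatment field is correct. The tumoroids came from intestinal tumours of Apc1638N/+ mice of a strain labelled MIX and were untreated. Each group came from 3 mice, per the series' design text.

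Tumoroids differed from the organoids in more than the tumour genotype. The mice that gave tumours were older than those that gave organoids, the labelled strain differed (the study's methods give a mixed background for all mice), no conditioned medium was added, and the study's methods leave R-spondin1 out of tumoroid medium while the labels give 1 medium for all libraries. None of these can be told apart from the tumour genotype in the comparisons below. In bulk libraries, fewer cells of a type and less RNA per cell cannot be told apart.

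The libraries held 16541635 to 25170966 counted reads. The summed level of 6 epithelial markers (Epcam, Cdh1, Krt8, Krt18, Krt19 and Vil1) lay between 9115 and 11385 CPM (reads scaled to a common library size by edgeR's TMM method) in the organoids and, lower, between 6336 and 7299 CPM in the tumoroids, where 3 of the 6 genes were lower and Krt18 was higher. Of 6 fibroblast markers, 5 stayed under 1 TPM in every library and Col3a1 had no read. The T cell gene Cd3e had no read either. The macrophage gene Cd68 was higher in tumoroids, and the summed level of 4 leukocyte markers was 0.635 to 1.70 CPM in organoids and 4.76 to 20.7 CPM in tumoroids. Of 2 endothelial markers, Cdh5 had no read in organoids and 1, 1 and 54 reads in tumoroids (edgeR adjusted p = 0.0923 against WT-cM-titled organoids), and Pecam1 had at most 20 reads in any library. The part of these cells in the values of the 9 genes was not tested.

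Dietary fat reaches enterocytes as fatty acids and monoacylglycerols, which fatty acid binding proteins carry through the cytosol to the endoplasmic reticulum. There, acyltransferases such as DGAT1 rebuild triglyceride, and the microsomal transfer protein MTTP loads it onto apolipoprotein B to form chylomicrons, which leave the cell with apolipoproteins A-I, A-IV and C-III. In the normal intestine these genes are expressed in villus enterocytes rather than in crypts. Fabp6 binds bile acids and is a gene of the distal small intestine, whereas Fabp1 is strongest in the proximal part.

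On the GRCm38 assembly, with positions from GENCODE release M21, Fabp1 (ENSMUSG00000054422.7) lies at chr6:71199827-71205023, Fabp2 (ENSMUSG00000023057.5) at chr3:122895072-122899506 and Fabp6 (ENSMUSG00000020405.4) at chr11:43596049-43601540. Apoa1 (ENSMUSG00000032083.8, chr9:46228580-46230466), Apoc3 (ENSMUSG00000032081.10, chr9:46232933-46235636) and Apoa4 (ENSMUSG00000032080.6, chr9:46240696-46243459) are neighbours within 14880 bp. Apob (ENSMUSG00000020609.14) lies at chr12:7977648-8016835, Mttp (ENSMUSG00000028158.14) at chr3:138089854-138144968 and Dgat1 (ENSMUSG00000022555.11) at chr15:76502015-76511953. The counts are sums over whole genes and do not separate exons or isoforms. An antisense gene, Gm10680, overlaps the end of Apoa4, and since the strand setting of the counting is not given in the sources used here, reads of the pair may be mixed. Gm10680 had 60 reads over all 9 libraries against 290588 for Apoa4.

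Fabp1 was the most abundant of all 50600 genes in WT-cM-titled organoids by mean TPM, a level per transcript length, and the gene ranked 2 in T-cM-titled organoids. Its mean level was 29038 ± 13263 TPM (SD, n = 3) in the first group and 17885 ± 4000 TPM (SD, n = 3) in the other. Fabp2, Apoa1 and Apoa4 followed, with mean levels between 3313 and 5654 TPM in both groups and ranks between 11 and 27. Mttp ranked 97 and 123, Dgat1 212 and 265, Apob 621 and 805, and Apoc3 1050 and 590, in the T-cM-titled and the WT-cM-titled group. Neighbours in this order overlapped in their libraries in several cases. Apoa1, for example, spanned 2565 to 4424 TPM in WT-cM-titled organoids and Apoa4 2229 to 4843 TPM.

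Fabp6 stood far below the other genes, with mean levels of 4.15 ± 1.52 TPM in T-cM-titled organoids and of 6.62 ± 4.77 TPM in the other group (SD, n = 3) and a rank of 9751 and 8804. In tumoroids the order was different. Dgat1 was the most abundant of the 9 genes at 62.2 ± 38.2 TPM, followed by Apob at 37.3 ± 35.2 TPM, Apoa4 at 26.1 ± 34.1 TPM and Fabp1 at 23.0 ± 17.3 TPM (SD, n = 3). Dgat1 was also the highest of the 9 genes within each tumoroid library, at 42.9, 106 and 37.5 TPM, while the order of the other genes was not the same in all 3 libraries. The 9 genes together took 1.10% to 2.16% of all counted reads in the organoid libraries and 0.0142% to 0.0594% in the tumoroids.

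**Figure D1:**
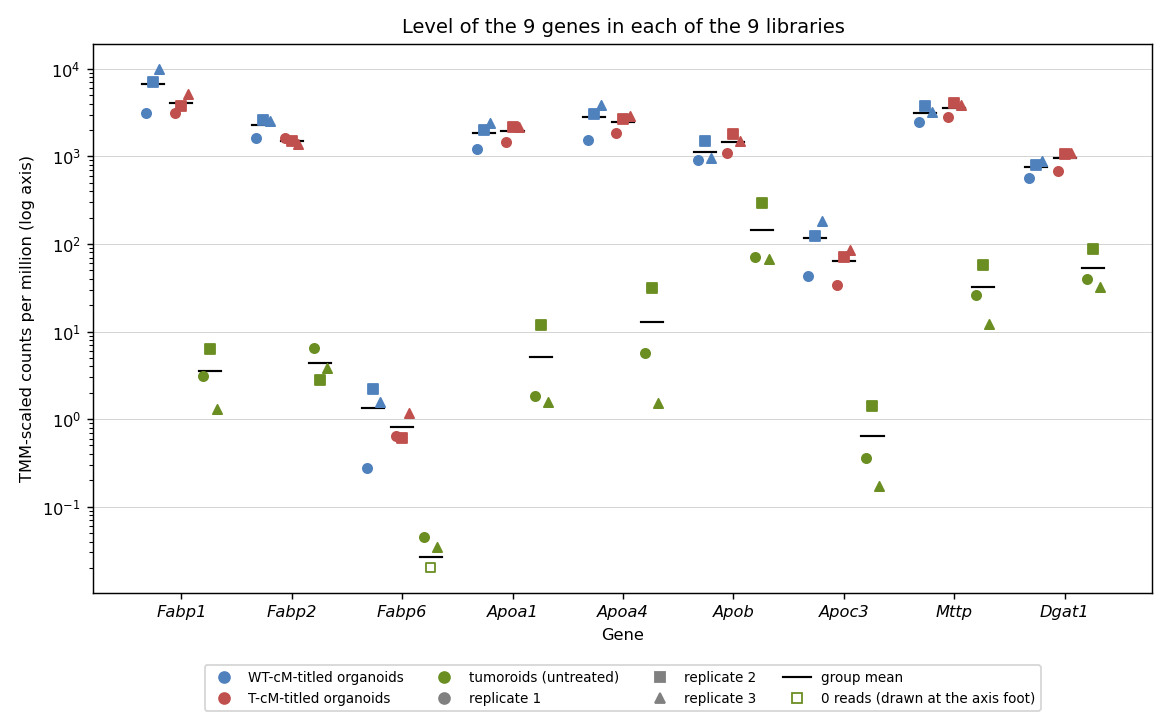
Level of each gene in each library, in TMM-scaled CPM on a log axis, with colours for groups, symbols for replicate numbers and black lines for group means. All tumoroid libraries lie below all organoid libraries for each of the 9 genes, and Fabp6 lies at or below 2.19 CPM in every library.

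The first comparison asked how far tumoroids differ from normal organoids in these genes. All 9 genes were lower in tumoroids than in either organoid group, from a 7.89-fold difference of mean levels for Apob to a 1897-fold difference for Fabp1, both against WT-cM-titled organoids. Of all tested genes, 18.5% fell below the WT-cM-titled organoids by the same test (edgeR's quasi-likelihood F test with Benjamini-Hochberg adjustment, adjusted p under 0.05) and 23.4% lay above them. Against T-cM-titled organoids these shares were 19.2% and 25.3%. With the added demand of a log2 fold change beyond 1, all 9 genes remained lower, against 11.6% and 11.8% of all tested genes. For each of the 9 genes every tumoroid library also lay below every library of either organoid group, as it did for 22.5% of all tested genes against WT-cM-titled and 23.8% against T-cM-titled organoids. The 2 comparisons share the tumoroid libraries. Tumoroid replicate 2 was the highest tumoroid for 7 of the 9 genes. Without it the log2 fold changes against WT-cM-titled organoids were -10.11 for Apoa1, -9.66 for Apoa4, -8.81 for Apoc3, -4.04 for Apob, -7.37 for Mttp and -11.61 for Fabp1, each more than 1.5 times the fold with all libraries, as they were against T-cM-titled organoids.

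Fabp1 showed the largest difference in both comparisons. It was followed by Fabp2 against WT-cM-titled organoids and by Apoa1 (log2 fold change -8.56) against T-cM-titled organoids. The place of Fabp2 depended on tumoroid replicate 2. Without that library Apoa1 (-10.11) and Apoa4 (-9.66) came before Fabp2 against WT-cM-titled organoids, Fabp2 reaching at the lowest -9.40 in any fit. Fabp1, whose protein binds long-chain fatty acids and other ligands in the cytosol of enterocytes and hepatocytes, was at 3140.1, 7145 and 9975 CPM in WT-cM-titled organoids, replicates 1 to 3, and at 3152, 3734 and 5189 CPM in T-cM-titled organoids. In tumoroids the level was 3.13, 6.25 and 1.31 CPM, from 69, 168 and 38 reads. Its log2 fold change in tumoroids was -10.89 (SE 0.81, edgeR adjusted p = 1.35e-05) relative to the WT-cM-titled group and -10.14 relative to the T-cM-titled group. Fabp2, the intestinal fatty acid binding protein, was at 1618, 2607 and 2568 CPM in WT-cM-titled organoids and at 1624, 1480.4 and 1369.6 CPM in T-cM-titled organoids. The tumoroids had 6.44, 2.83 and 3.88 CPM. The log2 fold change was -9.02 (SE 0.42, edgeR adjusted p = 2.08e-06) and -8.42 against the 2 organoid groups. Fabp2 was the only one of the 8 better covered genes in which tumoroid replicate 2 was the lowest and not the highest of the tumoroids.

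Fabp6, the ileal bile acid binding protein, was nearly absent from all cultures. Its reads numbered 5, 36 and 35 in WT-cM-titled organoids, 12, 9 and 21 in T-cM-titled organoids, and 1, 0 and 1 in tumoroids. A count of 0 allows up to 0.112 CPM in that tumoroid library, taking 3 reads as the limit, which covers counting error only, as do the intervals given here. The organoid reads exceeded the tumoroid reads by a ratio of 51.8 (95% exact interval 13.9 to 436) for WT-cM-titled and 31.9 (8.30 to 272) for T-cM-titled organoids, after scaling for library size. The edgeR test found Fabp6 lower in tumoroids, with an adjusted p of 0.00197 against WT-cM-titled organoids.

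Of the apolipoproteins, Apoa1, Apoa4 and Apoc3 were far lower in tumoroids and Apob was the least changed. Apoa1, the main protein of high density lipoprotein, was at 1208, 1991 and 2393 CPM in WT-cM-titled and 1467, 2185 and 2170.3 CPM in T-cM-titled organoids, and at 1.81, 12.0 and 1.58 CPM in tumoroids. Apoa4, which is secreted on chylomicrons, was at 1541, 3057 and 3847 CPM in WT-cM-titled, 1829.9, 2641 and 2866 CPM in T-cM-titled organoids and 5.62, 31.8 and 1.51 CPM in tumoroids. Their log2 fold changes against WT-cM-titled organoids were -8.50 (SE 0.90) and -7.76 (SE 1.09), with edgeR adjusted p values of 8.23e-05 and 0.000426. Within the tumoroids, Apoa4 differed 21.01-fold between replicates 2 and 3, the widest range of the 8 better covered genes.

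Apoc3, an inhibitor of lipoprotein lipase that is carried on triglyceride-rich particles, was at 42.8, 124 and 184 CPM in WT-cM-titled, 33.95, 70.6 and 86.1 CPM in T-cM-titled organoids and 0.363, 1.41 and 0.172 CPM in tumoroids. Its log2 fold change was -7.47 (SE 0.84, edgeR adjusted p = 0.000114) against WT-cM-titled organoids. Apob, the structural protein of chylomicrons, was at 913, 1507 and 971 CPM in WT-cM-titled, 1089, 1823 and 1489 CPM in T-cM-titled organoids and 71.5, 291 and 67.1 CPM in tumoroids. The Apob log2 fold change was -2.98 (SE 0.57, edgeR adjusted p = 0.00232), and -3.36 relative to the T-cM-titled group. Tumoroid replicate 2 had the highest level of all 4 apolipoproteins among the tumoroids, and for Apob it stood 4.34-fold above the lowest tumoroid.

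Mttp, the transfer protein that lipidates apolipoprotein B, was at 2445, 3787 and 3194 CPM in WT-cM-titled, 2812, 4034 and 3818 CPM in T-cM-titled organoids and 26.3, 57.2 and 12.1 CPM in tumoroids. Dgat1, which makes triglyceride from diacylglycerol, was at 562, 799.9 and 897 CPM in WT-cM-titled, 676, 1076 and 1091 CPM in T-cM-titled organoids and 40.0, 86.9 and 31.98 CPM in tumoroids. The log2 fold changes were -6.62 (SE 0.59) for Mttp and -3.83 (SE 0.42) for Dgat1, with edgeR adjusted p values of 3.57e-05 and 9.43e-05. The median log2 fold change of the 9 genes was -7.47 against WT-cM-titled and -6.80 against T-cM-titled organoids, where all tested genes had a median of 0.15 and 0.16.

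Other enterocyte genes were lower in tumoroids beside these 9. Of 10 further enterocyte markers, all 10 were lower than in WT-cM-titled organoids and 9 lower than in T-cM-titled organoids, and their summed level was 21083 to 42163 CPM in organoids and 222 to 869 CPM in tumoroids. The sucrase-isomaltase gene Sis (log2 fold change -8.95), the keratin gene Krt20 (-7.62) and the lactase gene Lct (-8.81) had the smallest p values of this list. Tumoroid replicate 2 had the highest sum of this list, at 869 CPM, as it did for the 9 genes, at 489 CPM. Of 5 crypt stem cell markers, 4 were higher in tumoroids, namely Lgr5 (log2 fold change 6.03), Axin2 (2.91), Ascl2 (3.08) and Smoc2 (1.52), whereas Olfm4 was at -2.85 (adjusted p = 0.0978, edgeR). None of 6 proliferation markers passed the test. Many markers of goblet, Paneth and enteroendocrine cells were lower too than in WT-cM-titled organoids. These were 5 of 7 goblet cell markers (median log2 fold change -2.62), 4 of 7 Paneth cell markers (-2.996) and 3 of 6 enteroendocrine markers (-1.34), and 1 Paneth cell marker was higher. Of 3 tuft cell markers tested, by contrast, none was lower and 1 was higher. The part of the shares of cell types in the differences of the 9 genes was not tested.

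**Figure D2:**
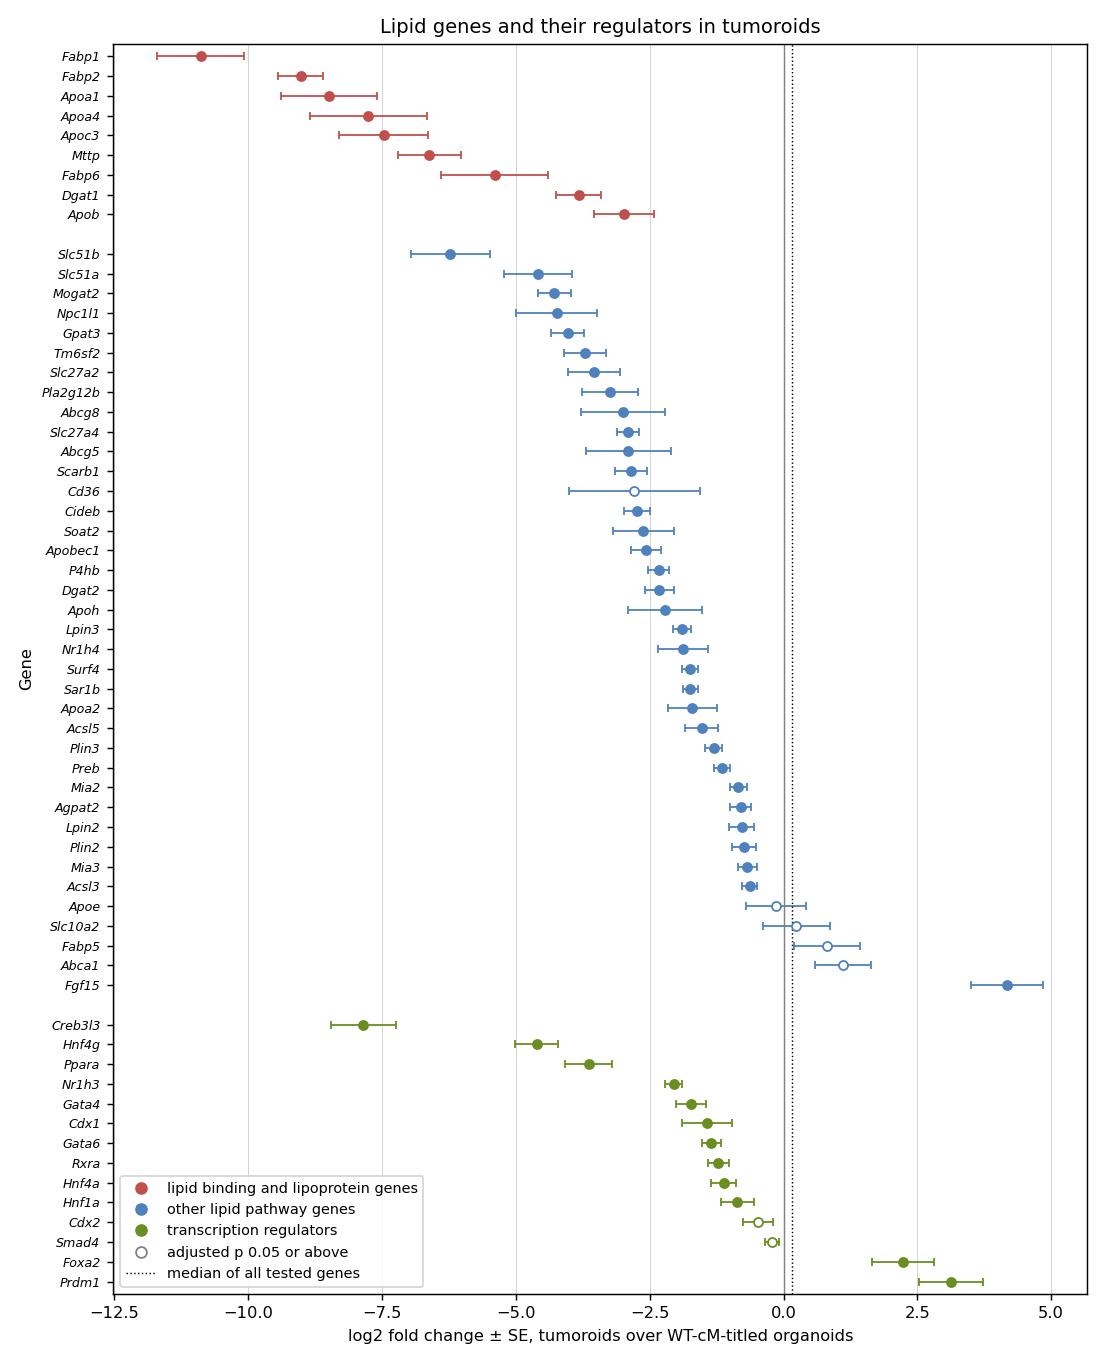
Fitted log2 fold change ± SE in tumoroids over WT-cM-titled organoids (horizontal axis) for the 9 genes, 38 other lipid pathway genes and transcription regulators of these genes. Filled points have an edgeR adjusted p under 0.05, and the 9 genes range from -10.89 (Fabp1) to -2.98 (Apob).

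Most other genes of the pathway were also lower in tumoroids. Of 45 other genes of lipid uptake, synthesis, export, sterol and bile acid handling, 38 passed the filter on low values. Of these, 32 were lower and 1 higher than in WT-cM-titled organoids, and 31 were lower and 1 higher than in T-cM-titled organoids, against the shares of all tested genes given above. The median log2 fold change of the 38 genes was -2.05 and -1.98. The values that follow are relative to WT-cM-titled organoids. All 6 genes of monoacylglycerol and glycerolipid synthesis were lower, among them the monoacylglycerol acyltransferase gene Mogat2 at -4.28 and Gpat3 at -4.03. All 10 genes of chylomicron assembly and export were lower, among them Cideb at -2.74, the disulphide isomerase gene P4hb, a partner of MTTP, at -2.33, and the small GTPase gene Sar1b at -1.74. Of 5 genes of fatty acid uptake and activation 4 were lower, with Slc27a4 at -2.91, and Cd36 was at -2.79 (edgeR adjusted p = 0.0962). Of 6 genes of sterol handling 5 were lower, with Scarb1 at -2.84 and the cholesterol transporter gene Npc1l1 at -4.24. Both lipid droplet coat genes, Plin2 (-0.74) and Plin3 (-1.31), were lower than in WT-cM-titled organoids. Relative to the T-cM-titled group only Plin3 was lower, Plin2 being at -0.44 (edgeR adjusted p = 0.139), and the highest Plin2 level in tumoroids, 117 CPM, lay above the lowest in both organoid groups.

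In the bile acid group the export transporter genes Slc51a (-4.59) and Slc51b (-6.23) and the bile acid receptor gene Nr1h4 (-1.88) were lower. Fgf15, the hormone gene that ileal enterocytes express in answer to bile acids, was the 1 gene of the 38 that was higher in tumoroids, with a log2 fold change of 4.18. The uptake transporter gene Slc10a2 was at 0.24 (edgeR adjusted p = 0.793). Of 7 further apolipoprotein genes only 3 were tested, of which Apoa2 (-1.70) and Apoh (-2.22) were lower and Apoe was at -0.14. Of 4 further fatty acid binding protein genes only Fabp5 was tested, at 0.81 (edgeR adjusted p = 0.317).

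Of 15 transcription regulators that are known to act on these genes, 10 were lower and 3 higher in tumoroids than in either organoid group, and their median log2 fold change relative to the WT-cM-titled group was -1.22. The largest differences were those of Creb3l3, a regulator of apolipoprotein genes, at -7.85 (SE 0.61), of Hnf4g at -4.61 and of the fatty acid receptor gene Ppara at -3.64. Hnf4a, the related nuclear receptor gene, was at -1.12 and Nr1h3 at -2.05. Foxa2 (2.23) and Prdm1 (3.13) were among those that were higher. The intestinal homeobox gene Cdx2 was at -0.47 (edgeR adjusted p = 0.196), and the other regulator that did not pass the test was Smad4. Ppara, Hnf4a, Foxa2 and Smad4 were chosen after their values were seen.

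The comparison of the organoid groups asked whether the medium conditioned by tumoroids changes these genes in normal epithelium. The 9 genes did not move as a group. Apoc3, Fabp1 and Fabp2 were lower in T-cM-titled than in WT-cM-titled organoids, and Apob and Dgat1 were higher, all by less than 1 on the log2 scale. Of all tested genes, 5.05% were lower and 5.03% higher by the same test, and 1.1% passed it with a log2 fold change beyond 1, among them none of the 9. The groups overlapped for each of the 9 genes. The share of all tested genes whose groups overlapped was not counted. Differences of the 9 genes showed only within replicate pairs, libraries of 1 replicate number being compared with each other.

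Fabp1 had nearly the same level in both libraries of pair 1 (3152 CPM T-cM-titled, 3140.1 CPM WT-cM-titled), but was lower in the T-cM-titled library of pairs 2 and 3. The log2 differences of the pairs were 0.01, -0.94 and -0.94, and the fitted value was -0.61 (SE 0.10, edgeR adjusted p = 0.000143). Fabp2 had the same course, with log2 differences of 0.01, -0.82 and -0.91 and a fitted value of -0.56 (SE 0.10, edgeR adjusted p = 0.000327). Neither passed the threshold by DESeq2 (adjusted p of 0.234 and 0.391) or by limma voom (0.0616 and 0.0674), and both lost the call without pair 2 and without the replicate block.

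Apoc3 was lower in the T-cM-titled library of all 3 pairs, by log2 differences of -0.33, -0.81 and -1.09, with a fitted value of -0.75 (SE 0.10, edgeR adjusted p = 5.83e-06). It was the only gene of the 9 lower in all pairs, as were 22.3% of all tested genes. Apoc3 also passed by DESeq2 and by limma voom. The other genes of the cluster on chromosome 9 did not pass the test. Apoa1 had log2 differences of 0.28, 0.13 and -0.14 and Apoa4 of 0.25, -0.21 and -0.42, with fitted values of 0.10 (edgeR adjusted p = 0.453) and -0.12 (0.451).

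Apob, Mttp and Dgat1 were higher in the T-cM-titled library of all 3 pairs, as were 18.9% of all tested genes. The log2 differences were 0.25, 0.28 and 0.62 for Apob, with a fitted value of 0.39 (SE 0.08, edgeR adjusted p = 0.000755). Dgat1 had 0.27, 0.43 and 0.28, with a fitted value of 0.34 (SE 0.07, edgeR adjusted p = 0.00195). Mttp had 0.20, 0.09 and 0.26, and its fitted value of 0.20 (SE 0.07) had an adjusted p of 0.054. Fabp6, at 5 to 36 reads per organoid library, had log2 differences of 1.21, -1.84 and -0.39 and did not pass edgeR's test (adjusted p = 0.481), the pairs differing in sign.

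**Figure D3:**
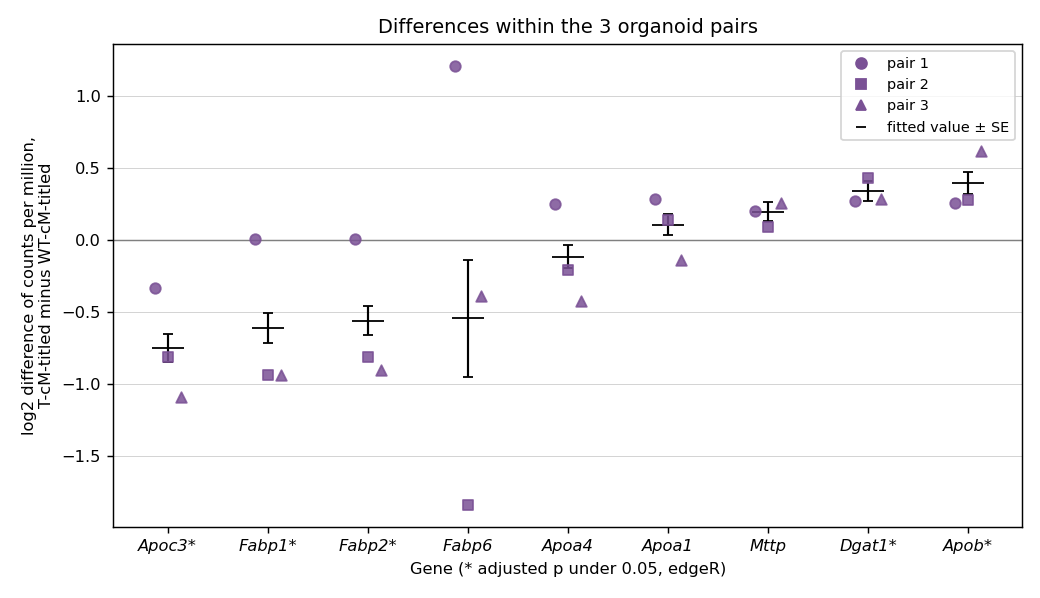
Log2 difference of CPM between the T-cM-titled and the WT-cM-titled library of each replicate pair (vertical axis, symbols for pairs) for each gene, with the fitted value ± SE in black. Apoc3 is below 0 and Apob, Dgat1 and Mttp are above 0 in all 3 pairs, while Fabp1 and Fabp2 are near 0 in pair 1 and below -0.8 in the other pairs.

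All 5 calls between the organoid groups depended on pair 2. Without it none of the 9 genes passed, and only 1 gene of all 16208 did, with 1557 at an unadjusted p under 0.05 (edgeR). Without pair 1 there were 2 higher and 4 lower, the added gene being Apoa4 at -0.31 (edgeR adjusted p = 0.000533). Calls over all 16208 genes rose there too, to 1355 higher and 1517 lower, from 816 and 818 with all pairs. Without pair 3 there were 1 higher and 3 lower, Apob having an edgeR adjusted p of 0.138. Of all 16208 genes, 296 were then higher and 237 lower. Without the replicate block no gene of the 9, and none of all tested genes, passed edgeR's test, although 904 had an unadjusted p under 0.05.

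Over all genes, short genes had lower differences than long ones in pairs 2 and 3. Apoc3, Fabp1 and Fabp2 have short exon sequence, of 1014, 553 and 965 bp, while that of Apob is 13934 bp, of Mttp 6206 bp and of Dgat1 3056 bp. In pair 2 the genes were not in the order of length throughout, as Apoa1, of 1236 bp, lay above Mttp and Dgat1 lay above Apob. In pair 3 Apoc3, Fabp1 and Fabp2 were lowest, at -1.09, -0.94 and -0.91. Apoa4 and Apoa1 were at -0.42 and -0.14 there, and Mttp, Dgat1 and Apob at 0.26, 0.28 and 0.62. Fabp6, with few reads, was at -0.39 in that pair. Among all 92 genes of at least 32 CPM with an exon length between 553 and 1014 bp, the median log2 difference was -0.03 in pair 1, -0.16 in pair 2 and -0.19 in pair 3. These 92 genes include Fabp1, Fabp2 and Apoc3 themselves, and the lowest 5% of the 92 lay below -0.29, -0.82 and -0.79. Among the 1189 genes with the longest exon sequence, at least 8159 bp, which include Apob, the medians were 0.01, 0.04 and 0.17. With each library's levels corrected for exon length, the calls of the 9 genes stayed at 3 lower and 2 higher, with values of -0.69 for Apoc3, -0.50 for Fabp1, -0.50 for Fabp2, 0.30 for Apob and 0.33 for Dgat1. The source of this dependence on length was not tested.

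**Figure D4:**
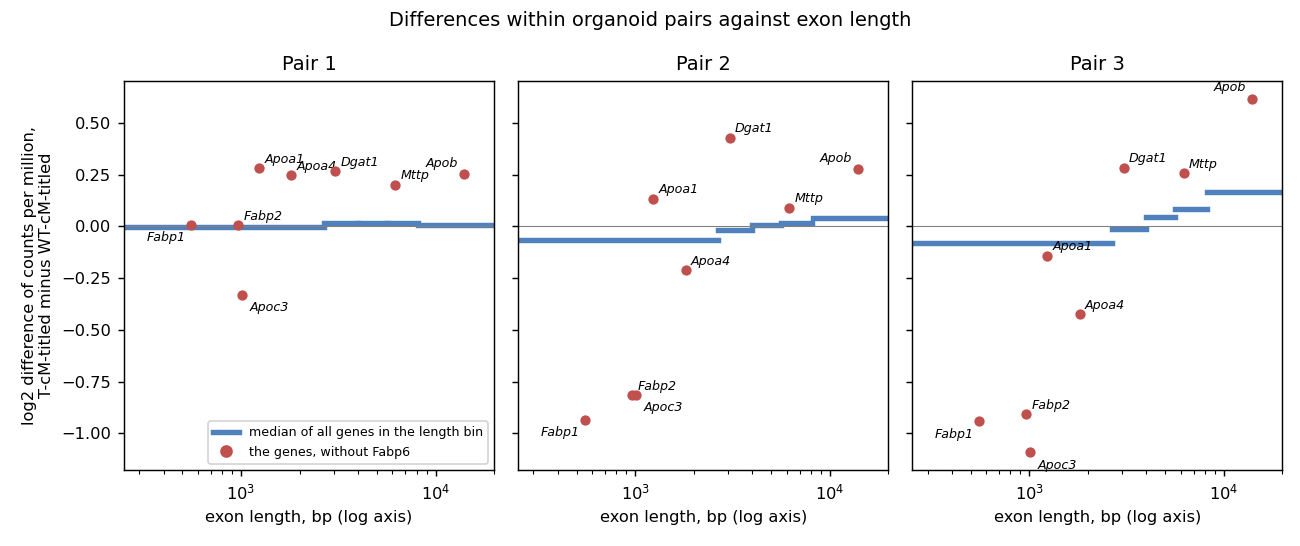
Log2 difference of CPM between the libraries of each organoid pair (vertical axis) against exon length in bp (log axis), for the genes other than Fabp6 (red points) and as the median of all genes of at least 32 CPM in 5 length bins (blue lines). The medians of the bins run from -0.08 to 0.17 in pair 3 and stay within 0.02 of 0 in pair 1.

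The sequences upstream of 2 genes that were lower (Fabp1, Fabp2) and 1 that was higher (Apob) in T-cM-titled organoids are given to show the promoters whose genes moved apart. They are from RefSeq (GRCm38.p6, plus strand), reach up to 250 bases before the RefSeq start and stop before any annotated transcript. Capitals mark matches, on either strand, to the letters TTTATNG (CDX type) and, in Apob, to the TATA box letters TATAAA, which overlap there.

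Fabp1, chr6:71199629-71199826: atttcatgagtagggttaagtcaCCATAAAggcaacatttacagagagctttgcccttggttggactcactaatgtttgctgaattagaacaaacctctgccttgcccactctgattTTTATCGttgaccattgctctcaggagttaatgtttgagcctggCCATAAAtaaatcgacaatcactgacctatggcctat

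Fabp2, chr3:122894822-122895071: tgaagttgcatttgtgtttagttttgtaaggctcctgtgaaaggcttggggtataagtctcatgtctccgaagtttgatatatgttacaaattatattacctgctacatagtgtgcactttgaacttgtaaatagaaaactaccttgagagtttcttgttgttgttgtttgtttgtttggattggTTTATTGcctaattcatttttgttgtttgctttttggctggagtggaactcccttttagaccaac

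Apob, chr12:7977427-7977647: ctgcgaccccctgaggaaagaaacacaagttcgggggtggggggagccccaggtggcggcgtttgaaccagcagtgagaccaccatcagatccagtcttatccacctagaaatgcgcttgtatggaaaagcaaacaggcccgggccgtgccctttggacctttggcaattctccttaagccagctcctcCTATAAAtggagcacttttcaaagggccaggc

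The Fabp1 promoter held 3 CDX type matches, starting 227, 133 and 89 bases before the RefSeq start, the Fabp2 promoter 1 at 65 bases and the Apob promoter 1 at 61 bases. Of all 32851 RefSeq promoters of 300 bases, 10.9% held such a match and 13.6% the letters TATAAA. The Fabp1 window also held TATAAA at 30 bases before the RefSeq start, past the stretch shown. Promoters were given for 7 of the 9 genes, the other two being Apoc3 and Dgat1. No match to CAAAGTCCA (HNF4 type, in 0.475% of all promoters), GTTAATNA (HNF1 type, 2.54%) or to the GATA type letters AGATAAG (3.04%) was found in these 7 windows, and those of Apoa1, Apoa4 and Mttp held none of the 5 motifs. Fabp6 held TATAAA on the minus strand.

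The rest of the lipid pathway differed little between the organoid groups. Of the 38 genes tested, 2 were higher in T-cM-titled organoids, the acyltransferase gene Agpat2 (log2 fold change 0.25) and the phosphatidate phosphatase gene Lpin2 (0.26), and 3 were lower, Slc51b (-0.57), Mogat2 (-0.25) and Lpin3 (-0.28). These 5 of 38 stand against 5.03% and 5.05% of all tested genes, and the median log2 fold change was 0.07 for the 38 genes, -0.12 for the 9 genes and 0.00 for all tested genes. None of the 15 regulators passed the test, Gata4 (0.18, adjusted p = 0.148), Prdm1 (0.49, 0.175) and Cdx2 (-0.16, 0.214) having the smallest p values by edgeR.

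Among marker genes of cell types, 6 of the 10 further enterocyte markers passed the test between the organoid groups. The alkaline phosphatase gene Alpi was higher in T-cM-titled organoids (log2 fold change 0.75), and 5 were lower, among them Mep1a (-0.86) and Lct (-0.48). Their summed level was 23338, 38296 and 42163 CPM in the T-cM-titled and 21083, 41982 and 38682 CPM in the WT-cM-titled libraries of pairs 1 to 3. In the same comparison, 4 of 7 Paneth cell markers, 4 of 6 enteroendocrine markers, 3 of 6 proliferation markers, 2 of 5 crypt stem cell markers and 1 of 7 goblet cell markers were lower and none of these was higher. The proliferation markers lower in T-cM-titled organoids were Cdk1 (log2 fold change -0.47), Top2a (-0.37) and Mki67 (-0.30), directions that follow the titles and would turn round with the treatment field. None of the 6 epithelial markers and none of the 3 tuft cell markers tested passed. The part of these cell types in the values of the 9 genes was not tested.

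Levels also differed between replicate numbers. Across the organoids, 8 of the 9 genes, all but Fabp2, differed between replicate numbers at an adjusted p under 0.05 (edgeR), as did 31.8% of all tested genes. The summed level of the 9 genes was 12684 and 11470.2 CPM in the T-cM-titled and WT-cM-titled libraries of pair 1, 17044 and 21019.7 CPM in pair 2, and 18080.0 and 24029 CPM in pair 3. Pair 1 was thus the lowest in either group. The 10 further enterocyte markers were lowest in pair 1 too, and the 5 crypt stem cell markers were highest there, at 214 and 314 CPM against 69.1 to 98.7 CPM in the other organoid libraries.

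Over the 6 organoid libraries, the 9 genes did not vary as one. As a description over libraries that are paired by replicate number and share media, Fabp1 varied most like Apoc3 (Pearson's r = 0.97 of log2 CPM) and Apoa4 (0.91), and Apob most like Mttp (0.91), whereas Fabp1 and Apob had an r near 0. The non-member genes whose log2 CPM followed the mean of the 9 most closely over these 6 libraries were Kdelr1, Nr1h4, Scp2, Il18 and Iyd, with r between 0.993 and 0.998. Over all 9 libraries they were Erich4, Creb3l3, Slc2a5, Prlr and Pex11a, each with an r of 0.998 or 0.999. Both sets were picked for the highest r among all tested genes. Over all 9 libraries the gap between organoids and tumoroids by itself raises the r of any gene lower in tumoroids.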

How the data were processed

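RNA was sequenced from 9 polyA-selected, stranded libraries, 3 per group. The authors aligned reads to mm10 with STAR and deposited raw counts per gene and, in a second table, TPM, in which the authors scaled counts by gene length. The counting tool and its strand setting are not given in the sources used here. Counts of 16541635 to 25170966 reads per library were scaled by TMM and fitted with edgeR 4.0.16 (quasi-likelihood, legacy form) in R 4.3.3, over the 16208 genes that reached 1 TPM in any library, and p-values were adjusted over all of them (Benjamini-Hochberg). The standard error given is the log2 fold change divided by the square root of F.

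Organoid groups were compared over 6 libraries, blocking on replicate number, and tumoroids with each organoid group over 9 libraries without it, as in the study's models. Same-numbered organoid libraries deviated together from their group means (r = 0.546, 0.338 and 0.547), so the numbers pair them. Tumoroid numbers did not pair with organoids throughout. The source of 3 mice per group comes from the series' design text, and whether the 3 mice of both organoid groups are the same was not stated.

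The 9 genes, the lists and the alternatives were chosen with earlier results of these data known. Genes named are the 9, up to 3 with the smallest p of each list in each comparison (not all are named), the 5 most like the mean of the 9, and others said to be chosen after their values were seen. Col3a1, Cd3e and Pecam1, listed markers that were not tested, were also named after their values were seen. Alternatives were limma 3.58.1 (voom, or log2 of TPM with a pseudocount of 1 or 0.1), DESeq2 1.42.0, other scaling factors, filters and fold thresholds, other use of the block, omission of each replicate and, chosen after seeing the data, a correction for exon length (GENCODE M21). Both quasi-likelihood forms of edgeR, limma voom and DESeq2 were tested on simulated data, and the other alternatives were not. Values of some listed genes are not reported here.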

Additional observations from a re-analysis of the deposited data

How the results depend on the processing

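All 9 genes stayed lower in tumoroids and past the test under each of the 18 alternatives run for either comparison, leave-one-out fits included, and the range of their log2 fold changes ran from -11.61 (Fabp1) to -2.08 (Fabp6). The median of all genes in these comparisons moved from 0.15 (TMM) to 0.40 with the exon length correction and 0.65 with log2(TPM + 0.1) against WT-cM-titled organoids, with no member changing direction. The other lipid genes higher in tumoroids (1) became 2 with log2(TPM + 1), with the replicate block, and without tumoroid replicate 2 against either group, and 2 with log2(TPM + 0.1) against WT-cM-titled organoids. The leave-one-out range was 1 to 2 for these genes and 28 to 32 for those lower.

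Between the organoid groups, where pairing by replicate number was the main design, no replicate block gave 0 members and 0 other lipid genes in either direction, as did a fold threshold of 1 and both TPM settings. The members lower (3) became 1 with DESeq2 and with limma voom and ranged from 0 to 4 with a replicate left out, and the members higher (2) from 0 to 2. Of all 16208 tested genes, 1634 passed in the main fit, 794 with DESeq2 and 581 with limma voom. With a replicate left out, 1 to 2872 of them passed. Other lipid genes higher (2) became 0 with DESeq2, limma voom, edgeR 4's quasi-likelihood method and upper-quartile factors and 1 with the length correction (leave-one-out 0 to 2). Those lower (3) became 0 with DESeq2 and limma voom and 1 with filterByExpr and with edgeR 4's method (leave-one-out 0 to 9). Mttp passed without a TPM filter (adjusted p = 0.0265). With a replicate left out, Apoa4 ranged from -0.31 to 0.022, passing without replicate 1 and with its sign reversed without replicate 3, and Fabp6 from -0.98 to 0.13, reversed without replicate 2. The cause of these changes was not tested, except that each leave-one-out fit has fewer libraries. With 3 pairs and 2 residual degrees of freedom per gene in the organoid fit, calls of differences under 1 on the log2 scale rest on the spread that edgeR shares between genes. Fabp6 had at most 36 reads in any library.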

Other observations

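Within 100000 bp of the Apoa1, Apoc3 and Apoa4 cluster, 4 other genes were tested. Against WT-cM-titled organoids, Sik3 (log2 fold change in tumoroids 0.01), Zpr1 (0.33) and Bud13 (0.46) did not pass edgeR's test, and Gm10680, which overlaps Apoa4, was lower (-4.79). Apoa5, the next apolipoprotein gene on the chromosome, had 11 reads over all libraries and was not tested. None of the 4 passed the test between the organoid groups, where their values lay between 0.04 and 0.16. These neighbours are named by position and were chosen after their values were seen.

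Among 4 genes typical of liver and yolk sac, tissues that also make apolipoproteins, Afp was lower in tumoroids (log2 fold change -5.15 against WT-cM-titled organoids), Alb (2.46) and Ttr (0.88) did not pass edgeR's test, and the fourth was under 1 TPM in every library. Alb was at 22.05 CPM in tumoroid replicate 2, 0.997 CPM in replicate 1 and 0 reads in replicate 3, against 0.605 to 2.21 CPM in the organoids, so that its positive value rests on replicate 2. The summed level of the 4 genes was 35.9 to 55.8 CPM in organoids and 19.8 to 28.3 CPM in tumoroids.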
